A study of Mus musculus with 4 samples.

Results

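Genes that tell limb from back at E13.5 whichever genotype is read were sought by setting both limb arrays of the series against both back arrays. The comparison uses all 4 arrays of the series, 2 of limb muscle and 2 of back muscle. A gene belongs to it when both limb arrays lie above both back arrays, or both lie below. Of 18193 genes on the array, 13832 reached a signal of 100 in at least 2 of the 4 arrays and were compared. Among these, 2700 genes (19.5%) were higher in both limb arrays and 2887 (20.9%) were higher in both back arrays, while the sites overlapped for the other 8245. Most of the gaps were small, with a median of 0.19 on the log2 scale between the nearest limb and back arrays. A gap of at least 2-fold, with both arrays of the higher site at 200 or more, was reached by 73 genes in the limb (0.528%) and by 78 genes in the back (0.564%), and these 151 genes are described here.

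The limb RNA came from wild-type (WT) and from MyoD-/- (Myod null) BALB/c embryos at E13.5. The back RNA came from WT and from Myf5-/- (Myf5 null) embryos of the same strain and stage. Each RNA was hybridised to 1 Affymetrix array, and the labels do not say how many embryos were used, or whether limb means forelimb, hindlimb or both. Each value is a MAS5 signal, an intensity per probe set rescaled here to a common trimmed mean of 500, and a signal under 100 was treated as having no level. The 2 arrays of a site differ in genotype and so are not replicates. The gap between the nearest arrays of the sites is larger than the difference within either site for 72 of the 73 limb genes and 76 of the 78 back genes. The 2-fold rule largely sets these counts. In addition, a site under 100 in both arrays has no within-site difference because of the floor. The median difference between the genotypes of a site was 0.30 (log2, without sign) in limb and 0.28 in back, and that between WT limb and WT back was 0.34.

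Limb and trunk muscle share a source in the somites but form in different surroundings. Limb muscle comes from cells that leave the lateral edge of the dermomyotome and migrate into a limb bud whose skeleton, tendon and connective tissue derive from lateral plate mesoderm. Back muscle is made next to the neural tube and stays with tissue of the somite. Hox genes and limb transcription factors record position in the connective tissue and skeleton more than in the muscle fibres, and a dissected piece holds all of these tissues.

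The labels were read against the targeted genes and the RNA first. Myod1, the regulator of muscle commitment, had limb signals of 1438 (WT) and 688 (MyoD-/-) and back signals of 2870 (WT) and 2333 (array labelled Myf5-/-). Myf5, the earlier acting factor of that family, had 506, 1019, 508 and 583 in the same order. Myf5 was thus not lower in the array with its null label, which is called Myf5-labelled back from here on, although a probe outside the deleted part would check nothing. Muscle markers were present in every array, the lowest signals being 1737 for Myog and 4567 for Tnnt1, both in MyoD-/- limb. The control transcripts differed with the site. Each of the 4 bacterial spike transcripts had a higher 3 prime over 5 prime signal ratio in both limb arrays than in both back arrays: the ratio of dap was 4.23 in WT limb, 3.06 in MyoD-/- limb, 1.61 in WT back and 1.61 in Myf5-labelled back, and that of lys was 11.2, 4.9, 2.29 and 2.56. The ratios of the cell's own Gapdh and Actb overlapped between the sites. The spike transcripts are bacterial and not of the tissue. Their ratios moved with the site, and their part in the differences below was not tested.

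**Figure D1:**
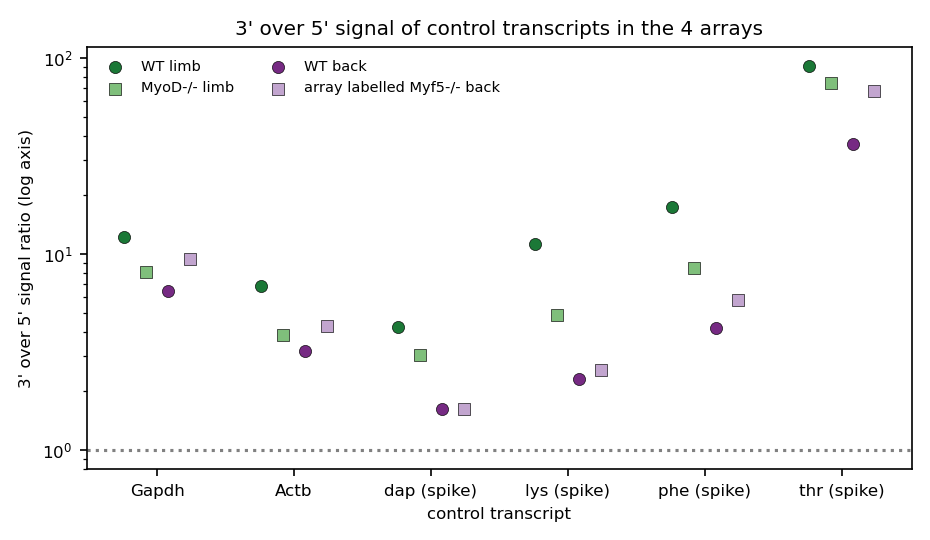
3 prime over 5 prime signal ratio (log axis) of the Gapdh and Actb controls and of 4 spike transcripts in each of the 4 arrays, 1 point per array. For dap, lys, phe and thr both limb arrays lie above both back arrays (phe at 17.4 and 8.5 against 4.2 and 5.81), whereas Gapdh and Actb overlap.

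The leading genes of each direction are transcription factors, and the sequence before the start of 4 of them is shown. These 4 are examples and not the widest gaps in order. Hoxd13 leads toward limb and Shox2 comes further down, while Foxd1 and Hoxa7 follow Hoxc8 toward back. The 250 bases come from RefSeq on GRCm38.p6, read 5′ to 3′ on the strand of the gene, and capitals mark CANNTG, the E-box that the Myod1 family binds. The array values carry no coordinates of their own.
Hoxd13, chr2:74667975-74668224, plus strand: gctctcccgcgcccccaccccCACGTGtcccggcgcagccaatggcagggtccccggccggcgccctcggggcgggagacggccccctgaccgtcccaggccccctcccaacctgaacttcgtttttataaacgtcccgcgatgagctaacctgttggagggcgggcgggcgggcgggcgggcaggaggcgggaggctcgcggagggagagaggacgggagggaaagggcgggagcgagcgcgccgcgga
Shox2, chr3:66981772-66982021, minus strand: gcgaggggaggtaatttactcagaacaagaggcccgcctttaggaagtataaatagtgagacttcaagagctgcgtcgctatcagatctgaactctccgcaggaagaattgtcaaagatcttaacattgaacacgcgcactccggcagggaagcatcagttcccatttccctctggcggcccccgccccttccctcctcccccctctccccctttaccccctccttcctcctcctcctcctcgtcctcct
Hoxa7, chr6:52218574-52218823, minus strand: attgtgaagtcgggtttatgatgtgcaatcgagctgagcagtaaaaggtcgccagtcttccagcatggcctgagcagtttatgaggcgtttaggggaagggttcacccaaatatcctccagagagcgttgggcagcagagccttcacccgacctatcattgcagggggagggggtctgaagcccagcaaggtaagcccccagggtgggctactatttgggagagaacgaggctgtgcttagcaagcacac
Foxd1, chr13:98353995-98354244, plus strand: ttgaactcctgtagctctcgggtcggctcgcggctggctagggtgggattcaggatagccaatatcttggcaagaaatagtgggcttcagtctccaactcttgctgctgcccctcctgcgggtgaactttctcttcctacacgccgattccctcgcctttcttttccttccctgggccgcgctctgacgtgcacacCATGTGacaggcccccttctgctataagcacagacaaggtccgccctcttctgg
Hoxd13 and Foxd1 each hold 1 E-box in this window, and Shox2 and Hoxa7 hold none. TATAAA was found before Hoxd13 and Shox2. CCAAT was found before Hoxd13 and Foxd1. A RefSeq window was found for 56 of the 73 limb genes and 55 of the 78 back genes. Searched on both strands, CANNTG was present in 57.1% of the limb windows and 74.5% of the back windows, against 66% of all 27025 promoters. TATAAA was present in 19.6% and 10.9%, against 13% of all. These are matches of letters in a window, not sites.

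Hoxd13, the last gene of the HoxD cluster and a regulator of the hand and foot, differed most between the sites. The signal of Hoxd13 was 12104 in WT limb, 15406 in MyoD-/- limb, 157 in WT back and 167 in Myf5-labelled back, so the nearest limb and back arrays were 72.4-fold apart. It is also the one gene called limb higher by limma over all 13832 genes (difference 6.40 ± 0.24 on the log2 scale, SE, Benjamini-Hochberg adjusted p = 0.00989, 0.00723% of genes). No gene was called back higher (0%), where the smallest adjusted p in limma was 0.116. At an unadjusted p under 0.05 limma gave 591 genes higher in limb (4.27%) and 706 higher in back (5.1%), and all 151 genes with a 2-fold gap are among them. That overlap rests on the same 4 arrays as the gap and adds no separate evidence. The spread in this fit is the difference between 2 genotypes of a site, with 2 residual degrees of freedom per gene, and does not measure variation between embryos of one genotype. The Hoxd13 call was lost with a floor of 50 or 200, with no filter on dim genes, with the median over probe sets (where a second, dim probe set brings the difference to 3.20) and without the MyoD-/- limb array; its direction was the same in all of these. Other settings gave more calls: an intensity trend in eBayes gave 36 limb and 18 back genes, cyclic loess gave 3 and 1, and the pseudocount of 100 gave 1 and 1.

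**Figure D2:**
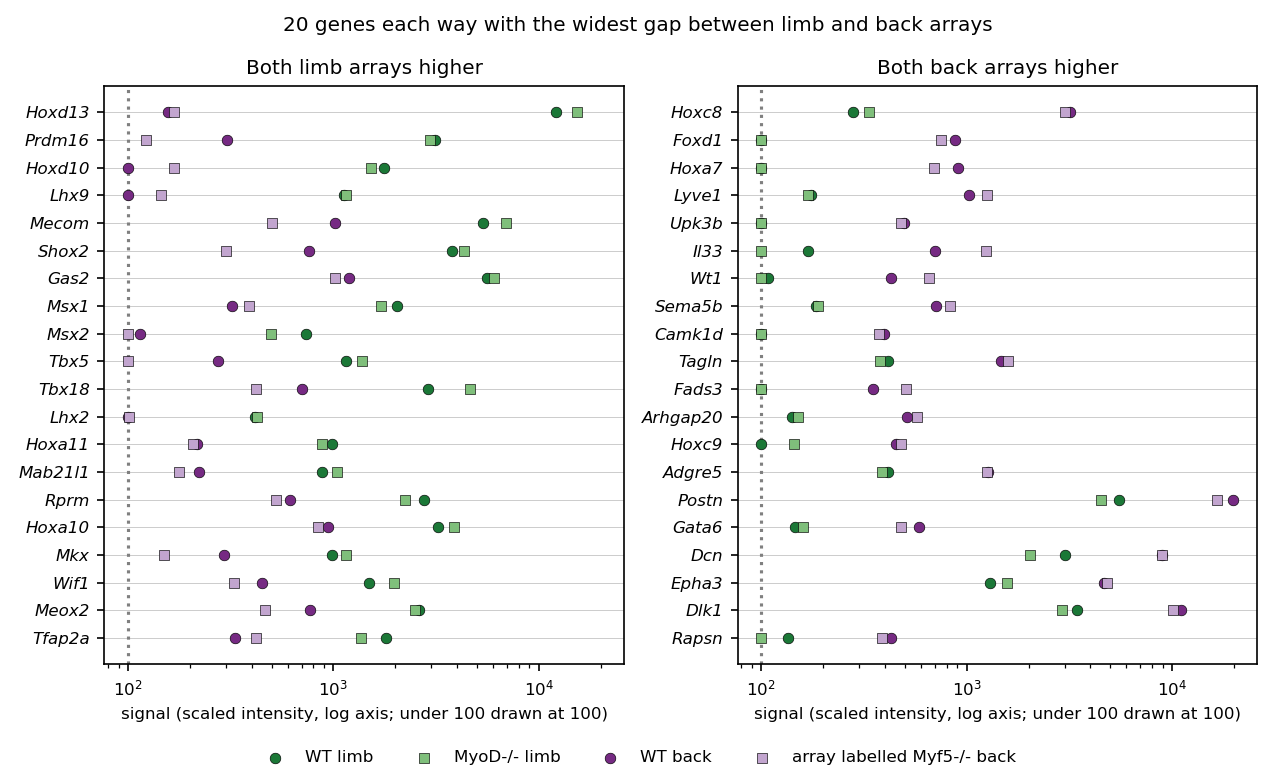
Signal (scaled intensity, log axis, values under 100 drawn at 100) of the 20 genes with the widest gap in each direction, leaving out names of clone or antisense type, 1 point per array. In each row the 2 points of the higher site lie to the right of both points of the lower site, from 72.4-fold for Hoxd13 and 9.03-fold for Hoxc8 downward.

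The Hox genes divided by cluster and paralog group. Of the 11 measured genes of paralog groups 9 to 13, 6 were higher in limb by the 2-fold gap and 2 were higher in back, and of 17 genes in groups 1 to 8 none was higher in limb and 2 were higher in back (0.528% and 0.564% of all genes). The limb-high genes were all in the HoxA and HoxD clusters and the back-high genes in the HoxA and HoxC clusters. The median difference (limb mean minus back mean, log2) was 1.17 for groups 9 to 13 and -0.69 for groups 1 to 8, against -0.01 over all genes tested.

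In the HoxD cluster, Hoxd10 had signals of 1756 in WT limb, 1522 in MyoD-/- limb, under 100 in WT back and 168 in Myf5-labelled back, a gap of 9.09-fold. Hoxd9 had 1122, 1344, 401 and 393 in that order, a gap of 2.80-fold. Hoxd11 had 245 and 234 in limb and under 100 and 113 in back. The limb arrays were close to each other for all of these genes. Hoxd12, which lies next to Hoxd13, stayed under 100 in every array. Hoxd8 overlapped between the sites, at 575 and 899 in limb and 890 and 891 in back.

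In the HoxA cluster the direction turned within a few genes. Hoxa11, which patterns the forearm and lower leg, had 989 in WT limb, 879 in MyoD-/- limb, 217 in WT back and 208 in Myf5-labelled back, a gap of 4.05-fold. Hoxa10 had 3239, 3846, 937 and 837, a gap of 3.46-fold. Its neighbour Hoxa9 did not separate the sites, with 4148 and 5423 in limb and 4971 and 4976 in back. Hoxa7, by contrast, was under 100 in both limb arrays and at 910 and 696 in the back arrays, at least 6.96-fold higher in back. Hoxa11os, the antisense transcript of the Hoxa11 locus, followed Hoxa11 with 596 and 835 in limb and under 100 and 158 in back, and the 2 transcripts overlap in the genome.

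In the HoxC cluster every gene with a 2-fold gap was higher in back. Hoxc8, a gene of the thoracic level, had 279 in WT limb, 333 in MyoD-/- limb, 3196 in WT back and 3009 in Myf5-labelled back, a gap of 9.03-fold (limma adjusted p = 0.116). Hoxc9 had under 100, 145, 452 and 478, a gap of 3.11-fold. Hoxc10 had 397 in WT limb and under 100 in MyoD-/- limb against 832 and 854 in back, so the limb arrays differed more from each other than the nearer one did from back. Hoxc4, Hoxc5 and Hoxc6 were also higher in both back arrays, with gaps under 2-fold. Of the HoxB genes none had a 2-fold gap, and Hoxb5 came nearest, at 115 and 124 in limb against 245 and 352 in back. For Hoxd10, Hoxa11, Hoxa7 and Hoxc8 a single probe set was read, and the second probe set of Hoxd13 was under 100 in every array.

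**Figure D3:**
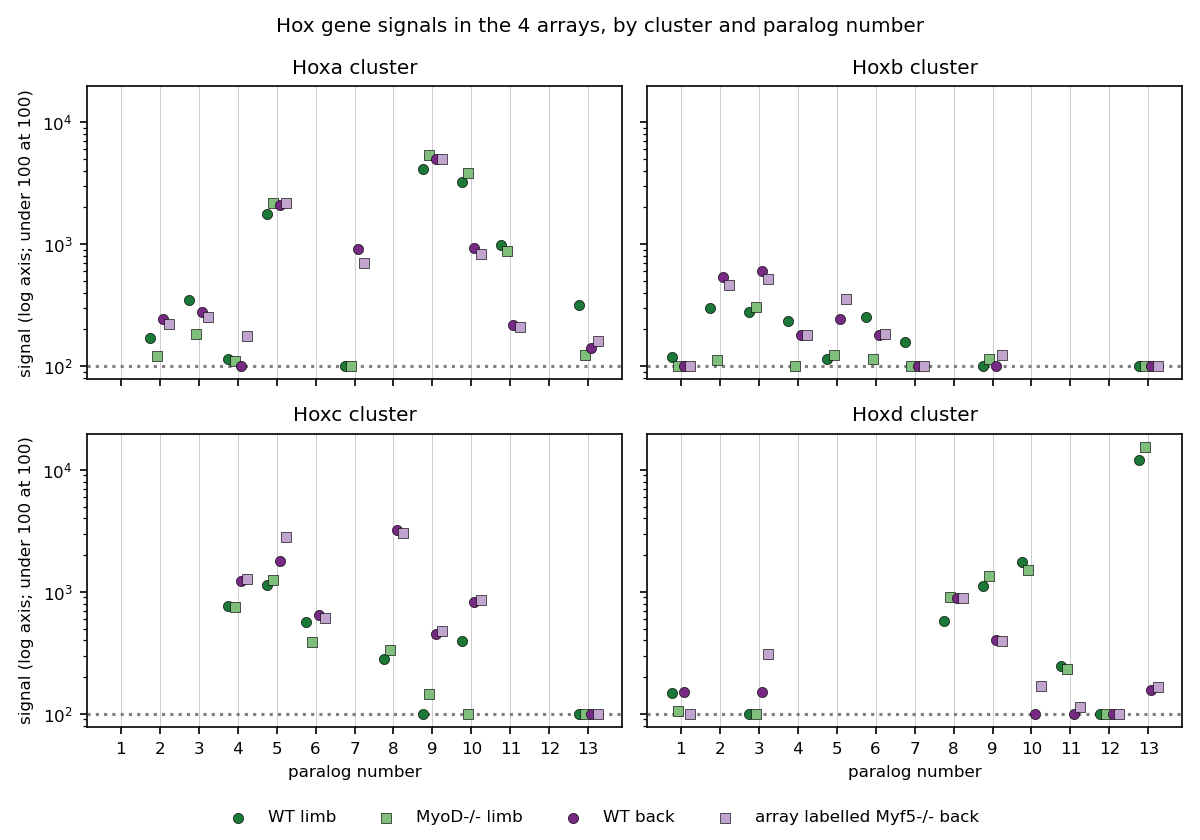
Signals (log axis, values under 100 drawn at 100) of the Hox genes on the array by paralog number, with 1 panel per cluster and 4 points per gene for the 4 arrays. By a 2-fold gap, limb points stand above back points at Hoxa10, Hoxa11, Hoxd9, Hoxd10, Hoxd11 and Hoxd13. Back points stand above limb points by such a gap at Hoxa7, Hoxc8, Hoxc9 and Hoxc10. Further genes, Hoxb5 among them, have both back points higher by less than 2-fold.

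Limb patterning factors outside the Hox clusters were mostly higher in limb. Of 33 measured members of that list, 12 had a 2-fold gap toward limb (36.4%, against 0.528% of all genes) and 1 toward back, and the median difference was 0.96 (-0.01 over all genes). Many of these genes are known as limb genes, so the list was in effect chosen for this direction.

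Lhx9, a LIM homeodomain factor of limb bud mesenchyme, had 1127 in WT limb, 1153 in MyoD-/- limb, under 100 in WT back and 145 in Myf5-labelled back, a gap of 7.78-fold, and its 3 other probe sets gave differences of the same sign, although 1 of them overlapped between the sites. Its relative Lhx2 had 413, 423, under 100 and 101, a gap of 4.11-fold. Shox2, which the upper arm and thigh skeleton needs, had 3759, 4304, 761 and 299, a gap of 4.94-fold. For each of these genes the limb arrays were close to each other. Tbx5, the T-box gene that starts the forelimb, had 1152 and 1375 in limb, 273 in WT back and under 100 in Myf5-labelled back, a gap of 4.22-fold, but a dimmer probe set overlapped between the sites at 261, 138, 164 and 154. Tbx18 had 2901 and 4613 in limb against 702 and 418 in back, a gap of 4.13-fold.

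The same list holds homeobox and signal response genes. Msx1, a homeobox gene that BMP signals maintain in distal mesenchyme, had 2029, 1705, 322 and 387 in the order given above, a gap of 4.41-fold. Msx2 had 732, 497, 115 and under 100, a gap of 4.32-fold, and a second probe set also separated the sites at 412 and 469 against 123 and 150. Lmx1b, which marks the dorsal side of the limb, had 607 and 732 against 189 and 131, but its dim second probe set overlapped, with a difference of -0.25. Hand2, a factor of the posterior limb bud, had 4508 and 3500 against 909 and 1125, but its dim second probe set gave a difference of -0.10. Gli1, a target of Hedgehog signalling, had 493 and 415 against 172 and 194. Prrx2 (gap 2.80-fold) and Dlx5 (2.44-fold) complete the list.

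The exceptions included 2 partners of Hox proteins. Meis1 had 1066 in WT limb, 684 in MyoD-/- limb, 2656 in WT back and 2624 in Myf5-labelled back, a gap of 2.46-fold toward back. Meis2 had 3347 and 2594 against 6356 and 7244, below 2-fold at the nearest arrays. In limb buds these genes mark the part next to the body wall. Pitx1, a hindlimb factor, was named after its values were seen: it had 757 in WT limb and 243 in MyoD-/- limb against 1025 and 1276 in back, higher in both back arrays by a gap of 0.44 on the log2 scale. Tbx4, the hindlimb T-box gene, had 815 and 484 against 156 and 295, higher in limb with a gap of 0.71, and was also named after its values were seen.

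Other regulators had wide gaps toward limb. Prdm16, a zinc finger protein of mesenchymal and brown fat lineages, had 3123, 2965, 304 and 122, a gap of 9.76-fold, in 1 of its 4 probe sets, while the other 3 were at 181 or lower in every array. Mecom, its closest relative, had 5354 and 6901 against 1015 and 504, a gap of 5.27-fold, again in 1 of 3 probe sets. Gas2, a growth arrest gene that binds the cytoskeleton, had 5604 and 6046 against 1191 and 1018, a gap of 4.70-fold. Rprm, a cell cycle inhibitor, had 2747 and 2220 against 613 and 528, a gap of 3.62-fold. Mab21l1 had 884 and 1042 against 222 and 177, a gap of 3.99-fold, with its second probe set separated the same way. The rule that named Mab21l1 required the same direction in that probe set, so it adds no separate evidence.

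Genes of tendon and joint showed members on both sides. Of 15 measured, 4 had a 2-fold gap toward limb and 0 toward back (0.528% and 0.564% of all genes), and the median difference was 0.09. The median was 0.21 between the WT arrays and -0.50 between MyoD-/- limb and Myf5-labelled back. By any amount, 4 were higher in both limb arrays and 6 in both back arrays (19.5% and 20.9% of all genes). Mkx, a transcription factor of tendon, had 990 in WT limb, 1146 in MyoD-/- limb, 295 in WT back and 150 in Myf5-labelled back, a gap of 3.35-fold. Kera, a proteoglycan of cornea and tendon, had 1814 and 1718 against 523 and 592, a gap of 2.90-fold. Gdf5, the ligand that marks the joint interzone, had 726 and 1304 against under 100 and 267, a gap of 2.72-fold, and Htra1 had a gap of 2.11-fold. The matrix genes Thbs2, Thbs4, Col12a1 and Col14a1 were higher in both back arrays by less than 2-fold, Thbs2 with 454 and 425 against 1309 and 785.

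Cartilage genes leaned toward limb, by an amount that depended on 1 back array. By any amount, 10 of 20 measured were higher in both limb arrays and 0 in both back arrays (19.5% and 20.9% of all genes). Matn4 was the only one of 20 with a 2-fold gap, at 2532 and 3207 in limb against 997 and 537 in back. The list's median difference was 0.90, but it was 0.09 between the WT arrays and 1.81 between MyoD-/- limb and Myf5-labelled back. Col9a1, a cartilage collagen, shows the pattern, with 6201 and 7082 in limb, 5480 in WT back and 1224 in Myf5-labelled back. The summed signal of the list was 25613 and 30397 in limb, 28035 in WT back and 8314 in Myf5-labelled back.

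Signalling genes with a limb gap included enzymes and antagonists. Aldh1a2, which makes retinoic acid, had 3470, 3927, 1377 and 1272, a gap of 2.52-fold. Wif1, a secreted Wnt inhibitor, had 1485 and 1970 against 451 and 327, a gap of 3.29-fold. In the other direction, the Wnt antagonist Sfrp1 had 1140 and 873 against 2280 and 3465, just inside the 2-fold limit, and its other probe sets gave differences of the same sign. Of 39 measured Wnt and retinoic acid genes, 17 were higher in both limb arrays by any amount and 8 in both back arrays (19.5% and 20.9% of all genes). Epidermal genes leaned toward limb as well, with 9 of 18 higher in both limb arrays against 19.5% of all genes and a median difference of 0.42. Krt5, a keratin of the basal layer, had 5685 and 6046 in limb against 2454 and 3927 in back, and the summed signal of the list was 22688 and 22297 against 12686 and 16367. Tfap2a, a factor of ectoderm and limb mesenchyme, was the one member with a 2-fold gap, at 1806 and 1368 against 332 and 422, although a second probe set ran the other way at 113 and under 100 against 146 and 166. The part of skin in the limb values was not tested.

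Among regulators and progenitor markers of muscle only Meox2 separated the sites by 2-fold. Meox2, a homeobox factor of limb muscle precursors and somites, had 2613 in WT limb, 2501 in MyoD-/- limb, 769 in WT back and 467 in Myf5-labelled back, a gap of 3.25-fold, with its second probe set at 859 and 1109 against 295 and 215. Lbx1, which migrating limb precursors use, had 447 and 355 against 123 and 194, a gap of 0.87 on the log2 scale. Pax3 and Pax7 overlapped between the sites. Myog, the factor of terminal differentiation, had 2401 and 1737 against 4934 and 3404, higher in both back arrays by 0.50. Myod1 was higher in both back arrays by 0.70, and since 1 limb array carries the MyoD-/- label that value does not rest on site alone: WT limb had 1438 and WT back 2870. Myf6 was under 100 in all 4 arrays.

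Contractile genes were higher in back by modest amounts. Of 47 measured sarcomere genes, 42 had a difference below 0 and 29 were higher in both back arrays, against 20.9% of all genes, while 2 were higher in both limb arrays. The median difference was -0.72, and it was -0.85 between the WT arrays and -0.63 between MyoD-/- limb and Myf5-labelled back. In pieces of tissue, fewer muscle cells and less RNA per muscle cell cannot be told apart. The summed signal of these genes was 141665 in WT limb, 100249 in MyoD-/- limb, 258875 in WT back and 174900 in Myf5-labelled back.

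Only Tpm1, a tropomyosin that heart and smooth muscle also use, reached the 2-fold gap, with 3381 and 3257 in limb against 8558 and 6856 in back (2.03-fold, 3 further bright probe sets with the same sign). Acta1, the skeletal alpha actin, had 9592 and 6172 against 27605 and 18392, a gap of 0.94 on the log2 scale. Ttn, the giant spring protein titin, had 2121 and 1676 against 7211 and 3583, a gap of 0.76. Myh3, the embryonic myosin heavy chain, had 17860 and 9209 against 30238 and 18576, and here WT limb and Myf5-labelled back were almost level. Of 9 slow-fibre isoforms 8 were below 0, with a median of -0.97. Of 13 fast-fibre isoforms 10 were below 0, with a median of -0.59, 7 being higher in both back arrays and 1 in both limb arrays. That 1 was Myoz1, a Z-disc protein of fast fibres, at 691 and 607 against 278 and 470.

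Other muscle genes with a 2-fold gap toward back include genes of the synapse and of metabolism. Rapsn, the protein that clusters acetylcholine receptors, had 135 in WT limb, under 100 in MyoD-/- limb, 428 in WT back and 386 in Myf5-labelled back, a gap of 2.86-fold. Chrnb1, the beta subunit of that receptor, had 332 and 257 against 993 and 710, a gap of 2.14-fold. Pygm, muscle glycogen phosphorylase, was under 100 in both limb arrays and at 304 and 237 in back, at least 2.37-fold higher. Of the 18 measured genes of the neuromuscular junction these 2 receptor genes were the ones with a 2-fold gap (0.564% of all genes), and the median difference was -0.21. Ankrd2, a stretch-responsive muscle protein outside the lists, had 256 and 224 against 708 and 672, a gap of 2.62-fold.

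Single genes of growth control and matrix had 2-fold gaps toward back. Igf1, the growth factor of muscle and connective tissue, had 4404 and 4648 in limb against 10926 and 9834 in back, a gap of 2.12-fold, and its 3 other probe sets separated the sites the same way. Dlk1, an imprinted gene of embryonic mesenchyme and muscle, had 3455 and 2914 against 11034 and 10079, a gap of 2.92-fold. Postn, a matrix protein of fibroblasts, had 5509 and 4501 against 19889 and 16562, a gap of 3.01-fold. Dcn, the proteoglycan decorin, had 2995 and 2044 against 8945 and 8930, a gap of 2.98-fold. A dimmer Dcn probe set overlapped between the sites, with a difference of -0.5. In the brightest probe sets of Dlk1, Postn and Dcn the arrays of a site lay closer to each other than to either array of the other site. The 2-fold rule largely sets this. Connective tissue genes as a list had a median difference of -0.31, with 11 of 27 higher in both back arrays and 4 in both limb arrays (20.9% and 19.5% of all genes).

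Guidance cues as a list did not lean to a site: 8 of 39 were higher in both limb arrays (19.5% of all genes were) and 12 in both back arrays (20.9%), and the median difference was -0.02. The members with a 2-fold gap were Epha3 and Slit3, both toward back. Epha3, an Eph receptor that repels axons, had 1293 and 1578 against 4648 and 4799, a gap of 2.95-fold, and a second bright probe set gave 630 and 561 against 2174 and 1927. Slit3, a repellent ligand, had under 100 and 112 against 239 and 280. Nefm, the medium neurofilament protein, had 275 and 246 against 898 and 720, a gap of 2.62-fold, and Nefl had 194 and 213 against 483 and 428, a gap of 2.01-fold. Ina, a further neurofilament protein, had under 100 and 111 against 245 and 355, but a second probe set separated the sites the other way, at 161 and 145 in limb and under 100 in both back arrays. The peripheral nerve filament Prph had 100 and under 100 against 236 and 201. Of 23 neuron genes 13 were higher in both back arrays (20.9% of all genes) and 4 of these by 2-fold (17.4%, against 0.564% of all genes). The summed signal of the neuron list was 5837 and 5641 in limb against 8075 and 7291 in back. Schwann cell genes, by comparison, had a median difference of -0.05, and none of 13 had a 2-fold gap.

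Other genes higher in back are known from trunk mesenchyme, body cavities or other cell types; 29 of the 78 back genes belong to any of the lists. Foxd1, a forkhead factor of trunk mesenchyme and kidney stroma, was under 100 in both limb arrays and at 879 and 752 in back, at least 7.52-fold higher. Wt1 had 108 in WT limb, under 100 in MyoD-/- limb, 428 in WT back and 657 in Myf5-labelled back, a gap of 3.95-fold. Upk3b had under 100 in both limb arrays and 493 and 480 in back, at least 4.80-fold higher, in a probe set whose name marks shared probes. Its other probe set was under 100 in every array, so without shared-probe probe sets its difference was 0.000. Wt1 and Upk3b are both known markers of mesothelium, the lining of body cavities, a grouping made after their values were seen. The kidney cadherin Cdh16 was under 100 in both limb arrays and at 262 and 230 in back. Wt1 and Cdh16 were the 2 of 8 measured genes of liver and viscera with a 2-fold gap (0.564% of all genes), and the list's median difference was -0.89. Its liver genes overlapped between the sites. Afp had 176 and under 100 in limb against 1651 and under 100 in back, and Alb had 225 and under 100 against 609 and 177. The part of liver RNA in these differences was not tested. Zic1, a factor of the dorsal neural tube and dorsal somite, had 204 and 180 against 877 and 498, and Gata6 had 146 and 160 against 589 and 477. The dimmer probe sets of Gata6 overlapped between the sites, with differences of -0.57 and -0.48. The lists that hold Zic1 and Gata6 each had 1 member with a 2-fold gap toward limb as well, Meox2 and Six2. Zic1 was 1 of 11 measured sclerotome and vertebral column genes (median difference -0.30). Gata6 was 1 of 16 dermomyotome and trunk dermis genes (-0.06). Of all genes, 0.528% had such a gap toward limb and 0.564% toward back.

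Macrophage and lymphatic genes followed. Lyve1, a receptor of lymphatic vessels and of tissue macrophages, had 175, 169, 1028 and 1257, a gap of 5.88-fold, with its second probe set at 131 and 123 against 374 and 538. Mrc1, the mannose receptor of macrophages, had 520 and 665 against 1792 and 1550, a gap of 2.33-fold. Of 15 macrophage and immune genes, 11 were higher in both back arrays and 0 in both limb arrays (20.9% and 19.5% of all genes), with a median difference of -0.68. Csf1r, the receptor that macrophages need, had 2511 and 1857 against 3418 and 3499. The summed signal of the list was 8608 and 7024 in limb against 13980 and 12952 in back, and its part in the differences of other genes was not tested. Tagln, an actin-binding protein of smooth muscle and young myocytes, had 415 and 379 against 1476 and 1597, a gap of 3.56-fold. Of 10 measured smooth muscle and pericyte genes, 5 were higher in both back arrays and 2 in both limb arrays (20.9% and 19.5% of all genes). Acta2, the smooth muscle actin that young muscle also makes, had 23522 and 22811 against 38917 and 36645. Myh11 and Cnn1, markers of mature smooth muscle, were under 100 in every array.

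Some of the widest gaps belonged to genes outside these groups. Toward back, Il33, a cytokine stored in nuclei of stromal cells, had 168 in WT limb, under 100 in MyoD-/- limb, 699 in WT back and 1244 in Myf5-labelled back, a gap of 4.15-fold. Adgre5, an adhesion receptor of leukocytes, had 413 and 385 against 1270 and 1251, and Lsp1, an actin-binding protein first known from leukocytes, had 1102 and 1113 against 3276 and 3100. For Adgre5 and Lsp1 the 2 arrays of a site were nearly equal. The kinase gene Camk1d and the desaturase family gene Fads3 were under 100 in both limb arrays and at least 3.76-fold and at least 3.48-fold higher in back. A dimmer Camk1d probe set overlapped between the sites, at 165 and under 100 in limb against 100 and 101 in back. Toward limb, Apod, a lipid carrier, had 396 and 287 against under 100 in both back arrays, at least 2.87-fold higher. Dlgap3, a scaffold protein, had 364 and 365 against under 100 and 127, and Fam241b had 410 and 575 against 130 and under 100. Six2, a homeobox gene of mesenchyme and tendon, had 1918 and 2590 against 703 and 700, a gap of 2.73-fold. The bone matrix gene Ibsp had 426 and 229 against under 100 in both back arrays. Its second probe set overlapped between the sites, at 212 and under 100 in limb against 111 and 134 in back. Toward back, Nes, an intermediate filament of neural and muscle precursors, had 1652 and 1749 against 3888 and 4054, and the endothelial receptor Tie1 was under 100 in both limb arrays and at 236 and 299 in back. Endothelial genes as a list had a median difference of -0.10, with 5 of 17 higher in both back arrays (20.9% of all genes). The 1 higher in both limb arrays (19.5% of all genes) was Pecam1, at 286 and 186 against 148 and under 100. At least 1 array was under 100 for 26 of the 73 limb genes and 35 of the 78 back genes, and the gap is a bound for the 11 and 21 of these whose lower site was under 100 in both arrays.

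The 2-fold rule across 4 arrays is stricter than any single comparison of sites. Between the WT arrays alone, 697 genes (5.04%) were at least 2-fold higher in limb and 494 (3.57%) at least 2-fold higher in back. Of these, 73 (10.5%) and 78 (15.8%) kept a 2-fold gap once MyoD-/- limb and Myf5-labelled back were added, a subset fixed by the rule. Around the limit, Oprm1 was just inside toward limb at 2.01-fold and Fam181b just outside at 1.996-fold. Toward back, Sfrp1 was inside at 2-fold and Fbxl15 outside at 1.996-fold.

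**Figure D4:**
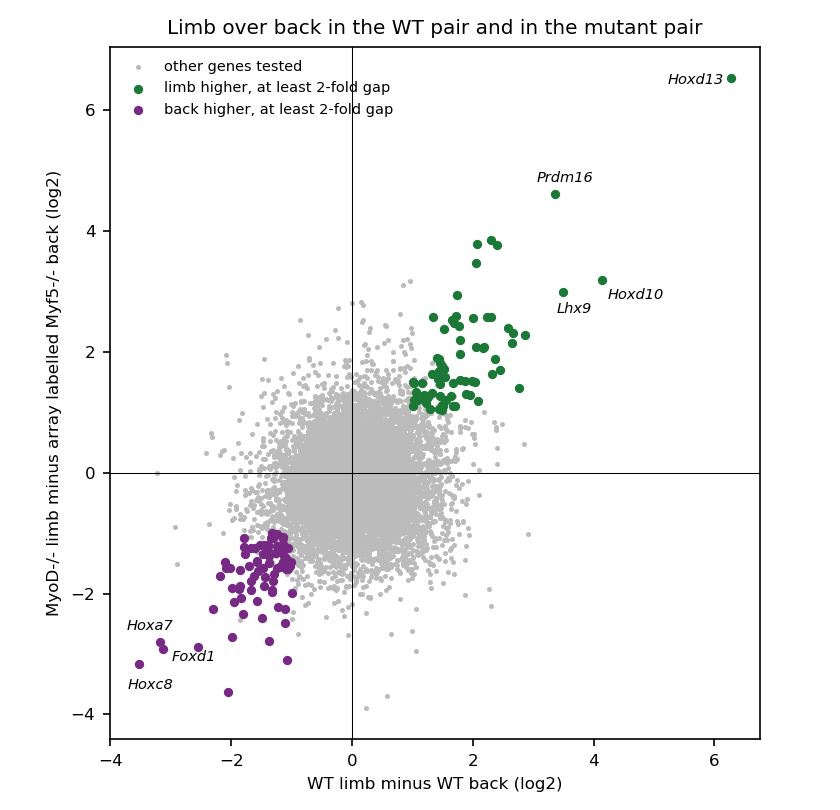
Log2 ratio of limb over back in the WT pair (x axis) and in the mutant pair, MyoD-/- limb over the array labelled Myf5-/- back (y axis), for all 13832 genes compared. Coloured points are the 73 genes with a 2-fold gap toward limb and the 78 toward back, and Hoxd13 stands apart at 6.27 and 6.53.

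**Figure D5:**
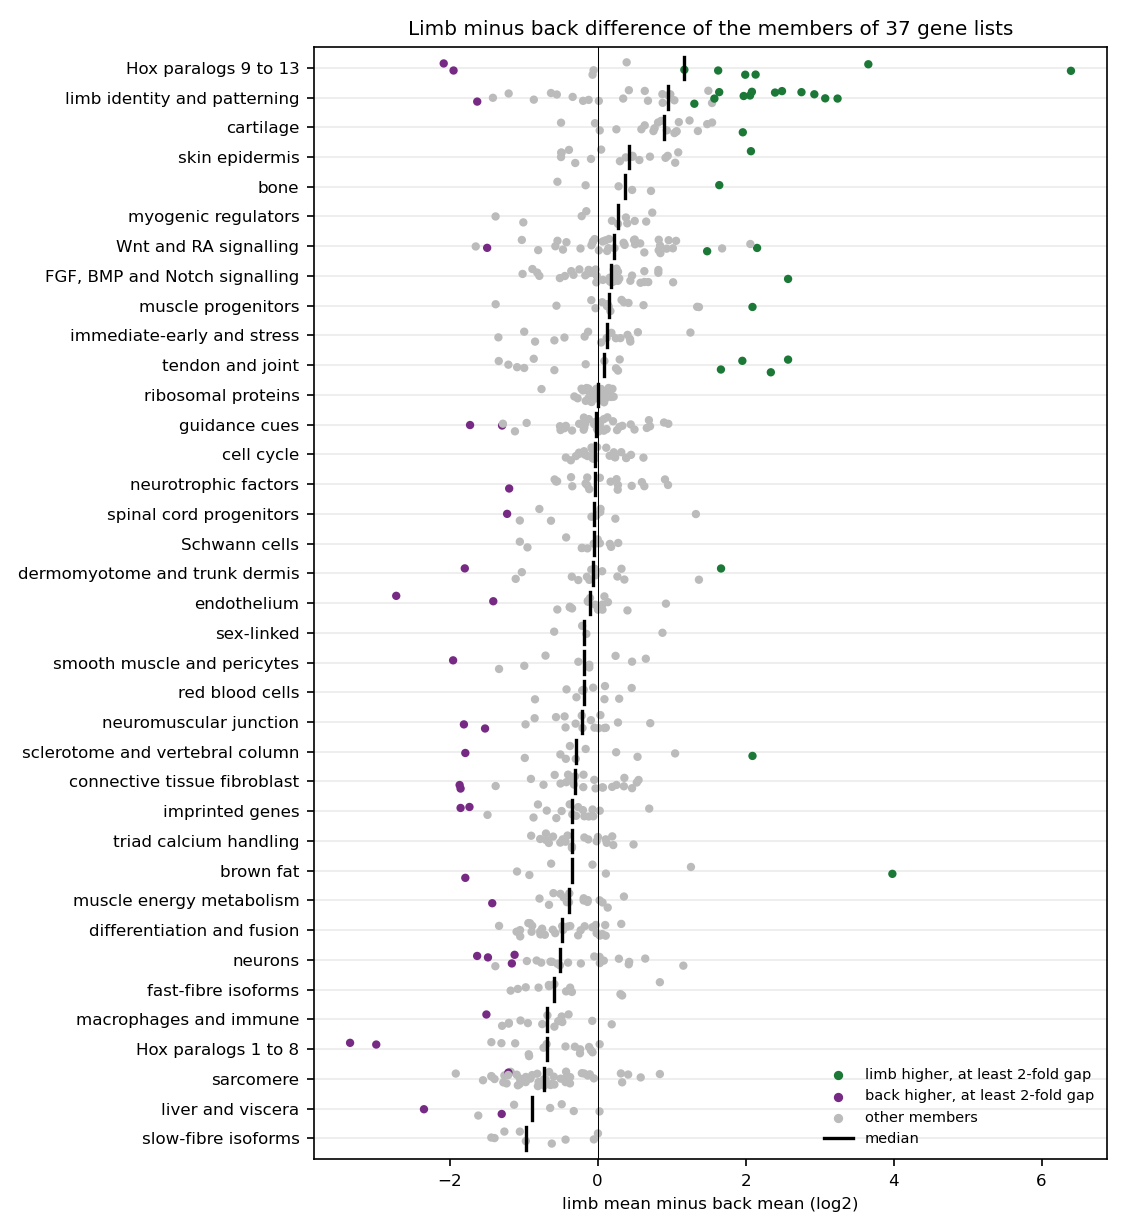
Limb mean minus back mean (log2) of each measured member of 37 gene lists, 1 point per gene, with the list median as a bar. Limb patterning and Hox paralogs 9 to 13 have medians of 0.96 and 1.17, sarcomere genes -0.72 and slow-fibre isoforms -0.97.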

How the data were processed

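Limb or back muscle of mouse embryos (BALB/c, E13.5) was measured on 1 Affymetrix array per sample. Per the labels' protocols, Trizol RNA was the starting material, and 6 µg went into the biotin-labelled target. Deposited values are linear MAS5 intensities, as the submitters' processing notes name the method, with no version in the sources used here. Arrays were rescaled to a 2% trimmed mean of 500 over probe sets that are not controls, floored at 100 and put on the log2 scale. One gene symbol was listed for 34958 of the 45101 probe sets, several for 932 and none for 9211, and the brightest probe set stood for a gene. Samples were grouped by source (limb or back), ignoring genotype. Genes at 100 or more in at least 2 arrays were compared by the gap between the nearest arrays and by limma 3.58.1 in R 4.3.3 (lmFit, eBayes, Benjamini-Hochberg). The steps were tested on simulated data. Arrays give no depth, and their number limits the precision. Named genes are the 12 widest gaps each way among genes measured in all arrays, the 8 widest with an array under the floor, list members with a 2-fold gap (otherwise up to 4 members by difference) and the Myod1 family; not every gene that the rule picks is reported here. Genes named for a widest gap needed the same direction in every other probe set at 100 or more in both arrays of the higher site. For a gene named only by its gap, such agreement was therefore set by the rule. Other genes below the 2-fold gap, given for contrast, were picked after their values were seen. The 37 lists, the members and the rules were chosen with earlier results of these data known. Alternatives concerned scaling, floor, pseudocount, probe sets, thresholds, the limma fit and leaving out each array.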

Additional observations from a re-analysis of the deposited data

How the results depend on the processing

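The counts of genes with a 2-fold gap (73 limb, 78 back) and of limma calls (1 and 0) were recomputed under 16 alternatives. The back count fell to 44 with a floor of 200, to 44 with both higher arrays at 400 or more and to 37 with a pseudocount of 100, and the limb count to 48 with the median over probe sets, 43 of them shared. At 3-fold, 26 and 15 genes were left. All other settings with 4 arrays kept both counts within 1.5 times; quantile normalization gave 89 and 68 (69 and 61 shared) and cyclic loess 77 and 57. Leaving out an array, which relaxes the rule, gave 183 to 316 limb genes and 214 to 467 back genes. The limma calls were 0 and 0 with a floor of 50, a floor of 200, the median over probe sets or no filter, 3 and 1 with cyclic loess, 1 and 1 with the pseudocount, and 36 and 18 with an intensity trend; without 1 array they ranged from 0 to 9 toward limb and 0 to 3 toward back. Of the single-gene differences 1 reversed, Hand2 at -0.103 with the median over probe sets, 219 moved by more than the spread within sites and 1838 did not. List medians moved in 88 cases of 444, and those of neurotrophic factors, spinal cord progenitors and ribosomal proteins changed sign with the scaling. No paired analysis was run. The labels match WT limb with WT back, but the other 2 arrays carry null labels of different genes. Each genotype at a site has 1 array, so site cannot be told apart from the embryo or dissection, and genes near 100 have only bounds.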

Other observations

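Among 4676 probe sets without a gene name here that reached 100 in at least 2 arrays, 8 (0.171%) had a 2-fold gap toward limb and 31 (0.663%) toward back. Among the sex-linked genes, Xist had limb signals of 7997 (WT) and 8067 (MyoD-/-) and back signals of 8611 (WT) and 2224 (array labelled Myf5-/-), and the Y-linked gene Eif2s3y had 261, 445, 362 and 398 in the same order.

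Imprinted genes leaned toward back. Of 19 measured, with Dlk1 and Dcn among them, 17 had a difference below 0 and 11 were higher in both back arrays, against 20.9% of all genes, with a median difference of -0.34. Plagl1, a zinc finger regulator of embryonic growth, had 35200 and 38906 in limb against 58925 and 60319 in back. Peg3, a paternally expressed zinc finger gene, had 27947 and 24260 against 43655 and 51668. The lean did not include Nnat, at 1127 and 1046 in limb against 697 and 643 in back.

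The inhibitors of basic helix-loop-helix factors went the other way from Myod1 and Myog. Id1 had 1348 and 1475 in limb against 797 and 897 in back, Id2 had 4019 and 3646 against 2406 and 2453, and Id3 had 4165 and 4491 against 2981 and 3132. In the brightest probe sets the sites did not overlap for any of these 3 genes. The gaps were between 0.41 and 0.59 on the log2 scale, which is under 2-fold. Dimmer probe sets of Id2 overlapped between the sites, 1 at under 100 and 566 in limb against under 100 and 307 in back. Another had under 100 and 119 against 101 and 201.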
